A study of Mus musculus with 12 samples.

Results

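The genes described here are 7 matrix metalloproteinases: the collagenases Mmp8 and Mmp13, the stromelysins Mmp3, Mmp10 and Mmp11, the metalloelastase Mmp12 and matrilysin, Mmp7. They were chosen by name, and every array probe carrying one of these symbols was taken, which gave 10 of the 46632 probes in the table. A detection p under 0.05 on at least 4 of the 12 arrays was met by 7 of the 10 probes, which belong to 5 of the 7 genes, and by 18200 probes in all.

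RNA came from femoral head cartilage explants of 21-day-old TS-4/5∆cat mice, with 4 hips per well, left untreated or cultured with 10 ng/mL IL-1α or 10 µM retinoic acid for 3 days. Every group carried the same in-frame deletions, of exon 4 of Adamts4 and exon 3 of Adamts5, so that neither enzyme has catalytic activity in any array and no wild-type cartilage was compared. Each treatment had 4 arrays, replicates 1 and 2 of batch 1 (the Donut line) and replicates 1 and 2 of batch 2 (the Gertrude line), and line and batch cannot be told apart. Nothing in the labels ties an array to separate animals, and 4 hips per well are more than 1 mouse has. The study's methods describe unpooled mice, in a number that does not match the arrays. The p-values therefore measure the spread between these samples.

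Matrix metalloproteinases are zinc endopeptidases made as inactive proenzymes. Collagenases cut the triple helix of fibrillar collagen, and Mmp13 is the main one of mouse cartilage and growth plate, where its substrate is type II collagen. Stromelysins cut proteoglycan core proteins and, in the case of Mmp3, the propeptides of collagenases, whereas Mmp11 is activated inside the cell by furin. IL-1α and retinoic acid are both used to make cartilage explants break down their aggrecan.

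Of the 7 genes, 6 lie on mouse chromosome 9 in a run of metalloproteinase genes ordered Mmp13, Mmp12, Mmp1b, Mmp3, Mmp1a, Mmp10, Mmp8, Mmp27, Mmp20 and Mmp7, with no other protein-coding gene between them in the RefSeq annotation of GRCm38.p6. Mmp11 lies alone on chromosome 10. Of the 10 genes of that run, Mmp13, Mmp12, Mmp3 and Mmp10 were detected on 4 or more arrays, while Mmp8 and Mmp27 were each detected on 1 array and Mmp1a, Mmp1b, Mmp20 and Mmp7 on none.

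RefSeq promoter windows, running from 250 bases before a transcription start to 50 after it, were found for all 7 genes (9 windows, since Mmp7 and Mmp12 have 2 starts each). The windows of Mmp3, Mmp10, Mmp13 and Mmp11 are shown because these genes followed different patterns across the treatments. Capitals mark the letters of the AP-1 site TGACTCA (read as TGAGTCA on the other strand) and of the TATA box TATAAA.
Mmp3, chr9:7445572-7445871, plus strand: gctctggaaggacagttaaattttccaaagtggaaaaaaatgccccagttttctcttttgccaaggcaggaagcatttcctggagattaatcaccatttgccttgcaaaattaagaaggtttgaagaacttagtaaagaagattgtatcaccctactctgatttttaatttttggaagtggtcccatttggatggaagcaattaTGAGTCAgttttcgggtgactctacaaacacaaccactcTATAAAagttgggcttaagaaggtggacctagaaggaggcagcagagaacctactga
Mmp10, chr9:7502092-7502391, plus strand: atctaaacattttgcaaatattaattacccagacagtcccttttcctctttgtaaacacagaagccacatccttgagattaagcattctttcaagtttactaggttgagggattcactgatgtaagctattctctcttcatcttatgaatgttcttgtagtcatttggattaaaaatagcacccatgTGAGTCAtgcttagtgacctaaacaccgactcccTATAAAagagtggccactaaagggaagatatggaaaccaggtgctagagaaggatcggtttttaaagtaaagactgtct
Mmp13, chr9:7272264-7272563, plus strand: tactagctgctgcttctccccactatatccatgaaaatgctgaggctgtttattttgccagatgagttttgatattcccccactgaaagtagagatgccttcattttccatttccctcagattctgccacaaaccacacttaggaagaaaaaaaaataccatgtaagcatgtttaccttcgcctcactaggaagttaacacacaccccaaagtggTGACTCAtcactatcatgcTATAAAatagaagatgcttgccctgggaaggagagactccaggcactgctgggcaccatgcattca
Mmp11, chr10:75932453-75932752, minus strand: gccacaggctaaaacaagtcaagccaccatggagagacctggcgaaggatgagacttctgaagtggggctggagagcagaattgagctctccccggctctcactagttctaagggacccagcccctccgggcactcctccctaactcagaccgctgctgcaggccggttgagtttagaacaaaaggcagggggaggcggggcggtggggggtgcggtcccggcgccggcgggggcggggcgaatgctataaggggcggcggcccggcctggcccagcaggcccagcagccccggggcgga
The AP-1 letters began at position -46 from the start of Mmp3, -63 of Mmp10 and -35 of Mmp13, and the TATA letters at -7, -29 and -16. The Mmp11 window held neither. Searched on both strands, the AP-1 letters were in 5 of the 9 windows (Mmp3, Mmp10, Mmp13, the first start of Mmp7 and the second start of Mmp12) and in 5.2% of all 32851 windows of the same length. TATAAA was in 6 of the 9 and in 13.6% of all windows. The Ets letters AGGAAG were in 6 windows (35.4% of all), the Runx letters ACCACA in 2 (16.8%), and the nuclear receptor letters AGGTCA in 2, those of Mmp10 and of the second Mmp12 start (16.3%). The Ets and Runx letters of Mmp13 all lie upstream of its AP-1 site, at -109 and -62 for AGGAAG and at -118 for ACCACA. These matches describe letters, and binding was not measured.

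The arrays gave deposited intensities with array medians of 34.3 to 63.3, array maxima between 15106 and 24188, and 13786 to 19485 probes detected per array. All levels below are log2 intensities after background correction and quantile normalization, on which the highest value was 14.24 and the lowest detected signal of an array lay between 4.86 and 5.48. Of 8 chondrocyte markers, 7 were detected in the cartilage, the exception being Matn3, which was not detected on any array. The summed chondrocyte marker intensity was 62436 to 73149 in untreated, 35299 to 46697 in IL-1α and 10157 to 15367 in retinoic acid cultures, and its part in the differences below was not tested. In such bulk samples fewer cells of a type and less RNA per cell cannot be told apart.

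IL-1α raised Mmp10, Mmp12, and 1 probe each of Mmp3 and Mmp13. Its differences on Mmp11 and on the other Mmp3 and Mmp13 probes were above 0 but did not pass. Those of Mmp11 and of that Mmp13 probe changed sign in some alternative fits. Retinoic acid raised Mmp10, Mmp11 and the dimmer Mmp13 probe and lowered both Mmp3 probes and Mmp12. In limma with batch and replicate as a block, 4 of the 7 probes passed an adjusted p of 0.05 for IL-1α against untreated, where 29.3% of all 18200 probes did, 15.2% higher and 14.1% lower. For retinoic acid against untreated 6 of 7 passed, with 3 higher and 3 lower, against 35.4% of all probes, 18.2% higher and 17.1% lower. For retinoic acid against IL-1α, 6 of 7 passed, with 2 higher and 4 lower, against 31.1%, 15.2% and 15.8%. The 3 comparisons share arrays, since each treatment enters a pair of them. The median log2 difference of the 7 probes was 0.78 for IL-1α, 0.16 for retinoic acid and -0.64 between them, and that of all probes 0.02, 0.02 and -0.03. When arrays were scaled to a common median instead, the share of calls that were higher moved from 51.6% to 65.6% for retinoic acid against untreated and from 49.0% to 65.6% between the treatments, and the median of all probes became 0.14 in the former.

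**Figure D1:**
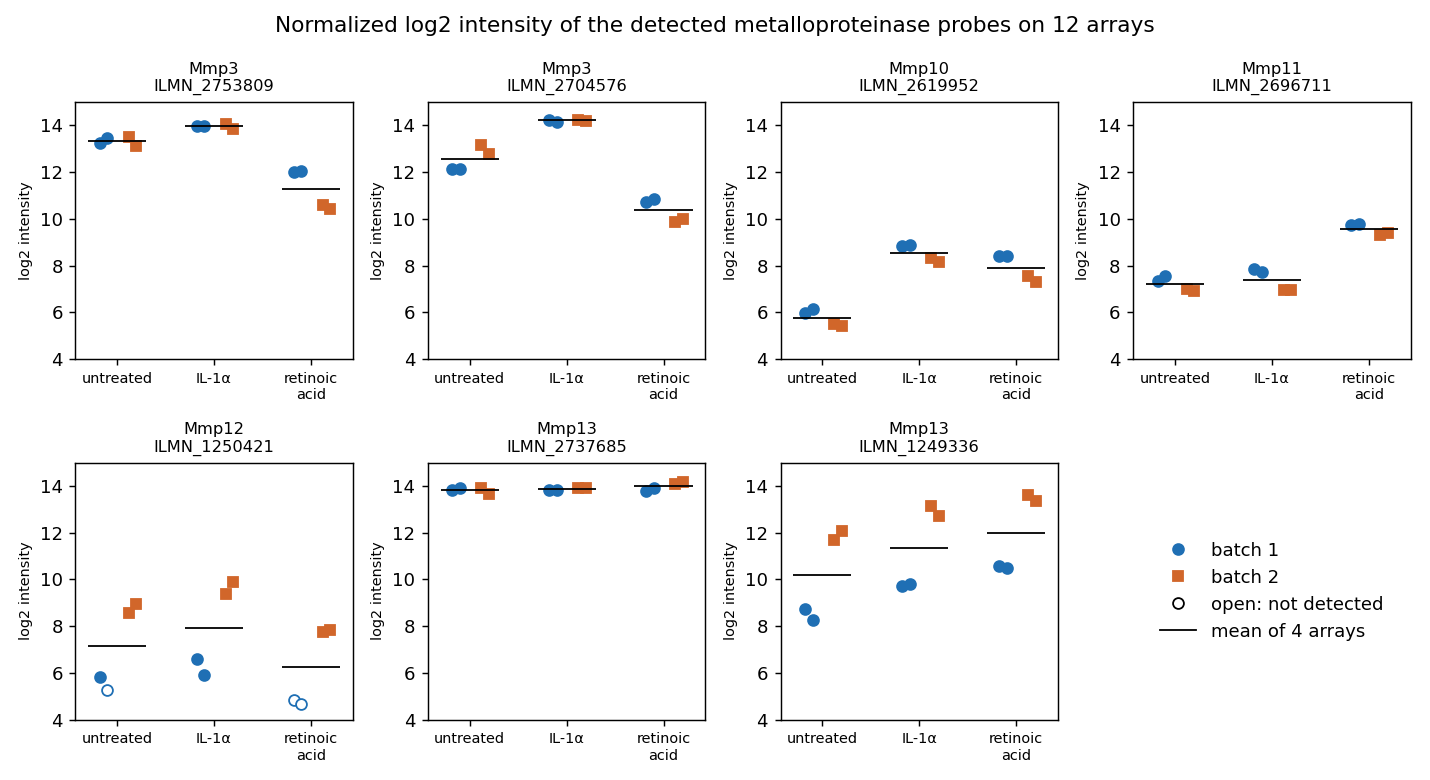
Normalized log2 intensity (y axis) of the 7 detected probes on each of the 12 arrays, by treatment, with circles for batch 1, squares for batch 2, open symbols for arrays where the probe was not detected and a line at the mean of 4 arrays. Mmp3 ran high with IL-1α and low with retinoic acid, Mmp10 was higher with both, Mmp11 with retinoic acid, and Mmp12 and Mmp13 ILMN_1249336 were separated by batch.

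Mmp3, stromelysin-1, moved in opposite directions under the 2 treatments. On probe ILMN_2704576 untreated batch 1 gave 12.14 and 12.13, and untreated batch 2 gave 13.15 and 12.77. With IL-1α they read 14.24, 14.15, 14.24 and 14.18, and with retinoic acid 10.73, 10.85, 9.88 and 9.97. The 3 groups did not overlap, and the untreated and retinoic acid arrays were also parted by batch. IL-1α raised it by 1.66 (SE 0.26, 95% interval 1.09 to 2.22, adjusted p = 0.000492), a 3.15-fold difference. Retinoic acid lowered it by a log2 difference of -2.19 (SE 0.26, adjusted p = 2.71e-05), so that the untreated level was 4.56-fold that with retinoic acid. Between the treatments the difference was -3.85 (SE 0.26, adjusted p = 1.60e-07), or 14.4-fold. The IL-1α values lay at or just under 14.24, the highest value that the normalization assigns on an array, which limits every fold taken against them.

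The other Mmp3 probe, ILMN_2753809, was brighter in untreated cartilage, at 13.32 ± 0.18 (SD, n = 4), with array values of 13.25, 13.45, 13.49 and 13.11. It read 13.99, 13.99, 14.04 and 13.83 with IL-1α and 12.01, 12.05, 10.58 and 10.41 with retinoic acid. The retinoic acid arrays lay below every untreated array, by -2.06 on average (SE 0.26, adjusted p = 4.63e-05). Its IL-1α difference of 0.64 (SE 0.26, interval 0.07 to 1.21) did not pass in limma (adjusted p = 0.0851), although the 4 IL-1α arrays lay above the 4 untreated ones (two-sided exact permutation p = 0.0286, the smallest that 4 against 4 arrays can give). It passed in batch 1 alone (0.80, adjusted p = 0.000680), in a fit of only the 8 arrays compared (adjusted p = 0.00356), after normalization within each batch (adjusted p = 0.0464) and without retinoic acid replicate 1 of batch 2 (adjusted p = 0.0483).

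The changes on the 2 Mmp3 probes lay close together for retinoic acid and further apart for IL-1α. The change with IL-1α was 1.02 larger on ILMN_2704576 than on ILMN_2753809, by 1.42 in batch 1 and 0.62 in batch 2 (exact permutation p = 0.0286, adjusted over the 6 probe-pair comparisons 0.0857). For retinoic acid against untreated the probes differed by -0.13 (exact p = 0.629), and for retinoic acid against IL-1α by -1.15 (exact p = 0.0286, adjusted 0.0857). Exchanging arrays only within batches gave exact p = 0.0556 for both comparisons with IL-1α, the smallest that test can give. ILMN_2753809 read 13.32 untreated under a highest normalized value of 14.24. It had less room to rise, so the gaps with IL-1α do not show unequal change of the transcripts. All IL-1α values of both probes stood among the 30 brightest of an array, with ILMN_2704576 the brightest of all on 2 arrays, whereas in untreated cartilage the probes ranked between 89 and 399. In deposited intensity, IL-1α arrays ran from 13132 to 20175 on ILMN_2753809 and from 13720 to 23922 on ILMN_2704576. The ratios of IL-1α to untreated in these unnormalized intensities were 2.10 and 1.44 in batches 1 and 2 on the first probe and 6.04 and 2.12 on the second.

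**Figure D2:**
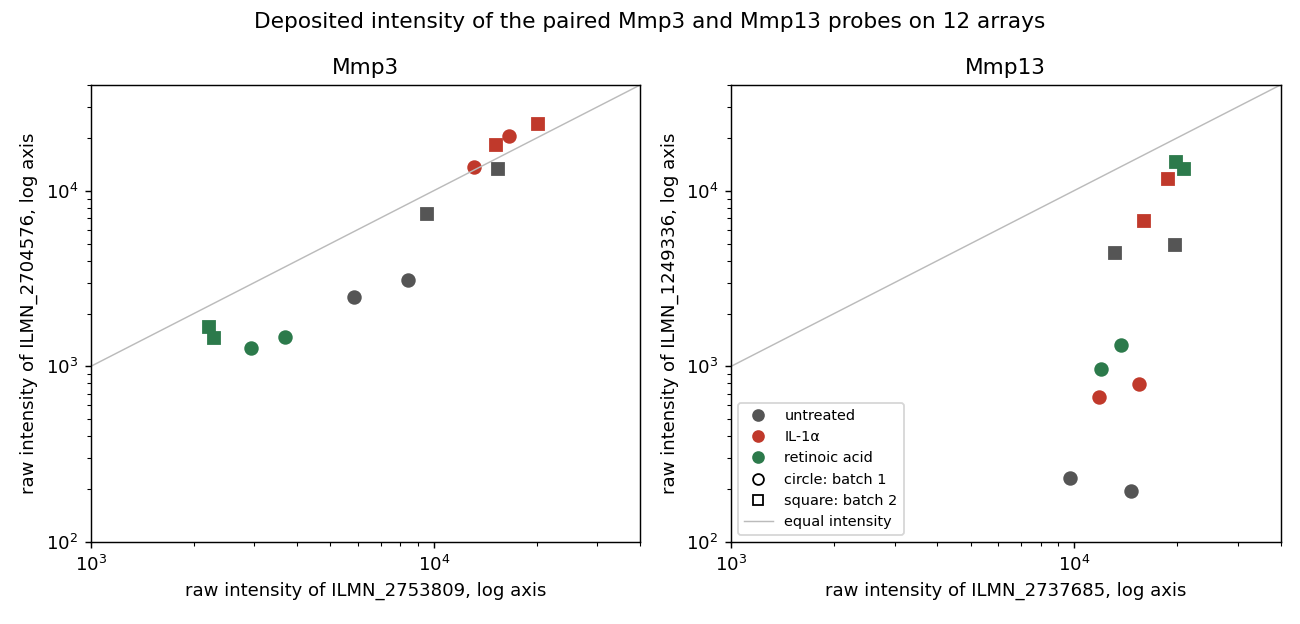
Deposited intensity of the 2 Mmp3 probes (left) and the 2 Mmp13 probes (right) on 12 arrays, both axes logarithmic, coloured by treatment, with circles for batch 1, squares for batch 2 and a line of equal intensity. Mmp3 probes followed each other, while Mmp13 ILMN_2737685 stayed between 9738 and 20950 as ILMN_1249336 ran from 194 to 14662.

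The fall of Mmp3 with retinoic acid was larger in batch 2. On ILMN_2753809 the untreated level was 2.49-fold that with retinoic acid in batch 1 and 6.99-fold in batch 2, and on ILMN_2704576 2.54-fold and 8.19-fold. The batch difference of this effect was -1.49 (SE 0.23, interval -1.97 to -1.01, adjusted p = 0.00183) on the first probe and -1.69 (SE 0.21, interval -2.14 to -1.23, adjusted p = 0.000465) on the second. Over all probes 2.86% had such a difference for retinoic acid against untreated, and among the 7 described here it was the 2 of Mmp3. Without normalization the ratio of retinoic acid to untreated was 0.468 and 0.185 on the first probe and 0.494 and 0.158 on the second. For IL-1α against untreated 1 probe differed between the batches (4.82% of all probes did), ILMN_2704576 with a difference of -0.81 (adjusted p = 0.0437), and this call held in 1 of 12 fits that each left out an array, without untreated replicate 2 of batch 2. For retinoic acid against IL-1α both Mmp3 probes differed (8.76% of all probes did), by -1.49 (adjusted p = 0.00103) and -0.88 (adjusted p = 0.0191), the second in 5 of those 12 fits.

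**Figure D3:**
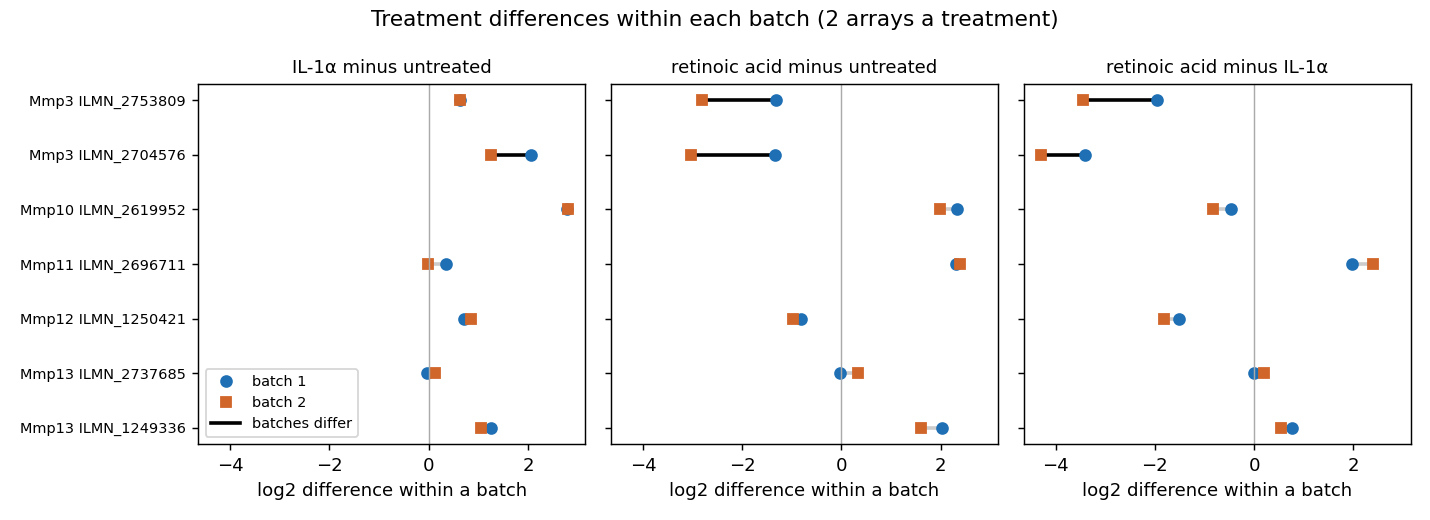
Log2 difference between treatments (x axis) within batch 1 (circles) and batch 2 (squares), 2 arrays a treatment in each, for the 7 probes, with a black bar where limma called the batches different. The black bars are those of Mmp3, which reach further left in batch 2 in both retinoic acid panels.

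Mmp10, stromelysin-2, rose with both treatments. Untreated arrays read 5.97, 6.15, 5.49 and 5.40, close to the lowest detected signal. With IL-1α they read 8.82, 8.88, 8.33 and 8.16, and with retinoic acid 8.39, 8.39, 7.56 and 7.29. Every treated array was above every untreated one, with the 2 treated groups overlapping. The IL-1α difference was 2.79 (SE 0.12, interval 2.53 to 3.05, adjusted p = 1.12e-08), a 6.93-fold difference that ranked 27th among all rises and came to 6.91-fold in batch 1 and 6.96-fold in batch 2. The retinoic acid difference was 2.16 (SE 0.12, interval 1.90 to 2.41, adjusted p = 2.91e-08), or 4.46-fold, at 5.03-fold and 3.95-fold in the batches. Retinoic acid left Mmp10 lower than IL-1α did, by -0.64 (adjusted p = 0.00116), and within each batch the retinoic acid arrays were below the IL-1α arrays, by -0.46 and -0.82. That last call was lost without batch in the model (adjusted p = 0.261).

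Mmp11, stromelysin-3, rose with retinoic acid, and its IL-1α difference did not pass the test. Its retinoic acid level was 9.54 ± 0.24 (SD, n = 4) against 7.20 ± 0.30 untreated and 7.36 ± 0.49 with IL-1α, and the retinoic acid arrays overlapped neither group. The rise against untreated was 5.09-fold (log2 difference 2.35, SE 0.13, adjusted p = 2.32e-08), and against IL-1α it was 4.54-fold (2.18, SE 0.13, adjusted p = 3.60e-08). IL-1α against untreated gave 0.16 (interval -0.11 to 0.44, adjusted p = 0.36), at 0.34 in batch 1 and -0.011 in batch 2, and the value passed in batch 1 alone (adjusted p = 0.0455).

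Mmp12, the macrophage metalloelastase that cuts elastin, was raised by IL-1α and lowered by retinoic acid, as Mmp3 ILMN_2704576 was, at a far lower signal. Probe ILMN_1250421 without treatment gave 5.85 and 5.27 in batch 1, against 8.55 and 8.97 in batch 2. It read 6.62, 5.93, 9.37 and 9.87 with IL-1α and 4.83, 4.68, 7.77 and 7.82 with retinoic acid. Over the 2 batches, which stood apart, the treatments overlapped, and within each batch the treatments did not overlap. It was detected on 9 of 12 arrays, and it was not detected in batch 1 on either retinoic acid array or on untreated replicate 2. The fit took undetected values as measured. IL-1α gave a difference of 0.78 (SE 0.13, adjusted p = 0.000797), and 1.81-fold in batch 2, where every array detected the probe. Retinoic acid gave -0.89 (SE 0.13, adjusted p = 0.000181), with the untreated level 1.95-fold that with retinoic acid in batch 2. No fold is given for batch 1, where 3 of these 4 arrays did not detect the probe. Against IL-1α the retinoic acid difference was -1.67 (adjusted p = 6.59e-07), 3.54-fold in batch 2 and at least 1.90-fold in batch 1, the weakest signal detected on each retinoic acid array standing in for its undetected value. All 3 calls were lost without batch in the model, where the adjusted p lay between 0.561 and 0.889. The second Mmp12 probe, ILMN_1228638, was detected on none of the 12 arrays and gives no level.

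Mmp13, collagenase-3, was read by 2 probes that fell on different sides of the threshold. The bright probe ILMN_2737685 read 13.83, 13.89, 13.93 and 13.66 untreated, 13.84, 13.83, 13.93 and 13.93 with IL-1α and 13.76, 13.90, 14.09 and 14.18 with retinoic acid, and it ranked between 2 and 60 among all probes of an array. None of its differences passed: 0.05 for IL-1α (interval -0.21 to 0.32, adjusted p = 0.774), 0.16 for retinoic acid (interval -0.10 to 0.42, adjusted p = 0.346) and 0.10 between them (interval -0.16 to 0.37, adjusted p = 0.574). With IL-1α the sign turned in batch 1 alone (-0.033) and without untreated replicate 2 of batch 2 (-0.044), and with retinoic acid in batch 1 alone (-0.030).

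The dimmer Mmp13 probe ILMN_1249336 without treatment gave 8.75 and 8.27 in batch 1, against 11.69 and 12.08 in batch 2. It read 9.71, 9.81, 13.14 and 12.73 with IL-1α and 10.58, 10.48, 13.62 and 13.35 with retinoic acid. Within each batch the order was untreated, IL-1α, retinoic acid with no overlap, while over both batches the groups overlapped. IL-1α raised it 2.21-fold (1.15, SE 0.16, adjusted p = 0.000154), at 2.37-fold and 2.07-fold in the batches. Retinoic acid raised it 3.50-fold (1.81, SE 0.16, adjusted p = 1.32e-06), at 4.06-fold and 3.03-fold. Retinoic acid against IL-1α gave 0.66 (SE 0.16, adjusted p = 0.00563), which did not pass under median scaling (adjusted p = 0.0542) or in batch 2 alone (adjusted p = 0.134). Without batch in the model none of these 3 calls held (adjusted p of 0.449 to 0.944).

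The change on the dimmer Mmp13 probe minus that on the bright one was 1.09 for IL-1α (1.27 in batch 1 and 0.91 in batch 2), 1.65 for retinoic acid (2.05 and 1.26) and 0.56 between the treatments (0.77 and 0.34). The bright probe lay between 13.66 and 14.18, under a highest normalized value of 14.24, so it had little room to rise and these differences do not show unequal change of the transcripts. The exact permutation p over both batches was 0.457, 0.257 and 0.543. Exchanging arrays only within batches gave exact p = 0.0556 for the first and second of these, the smallest that 2 against 2 arrays in each of 2 batches can give, and 0.111 for the third, so this test cannot reach 0.05. Averaging the 2 probes gave a Mmp13 difference of 0.60 for IL-1α (adjusted p = 0.000858) and 0.98 for retinoic acid (adjusted p = 9.52e-06). The arrays' files hold no probe sequences, so which transcripts each probe reads is not given in the sources used here.

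**Figure D4:**
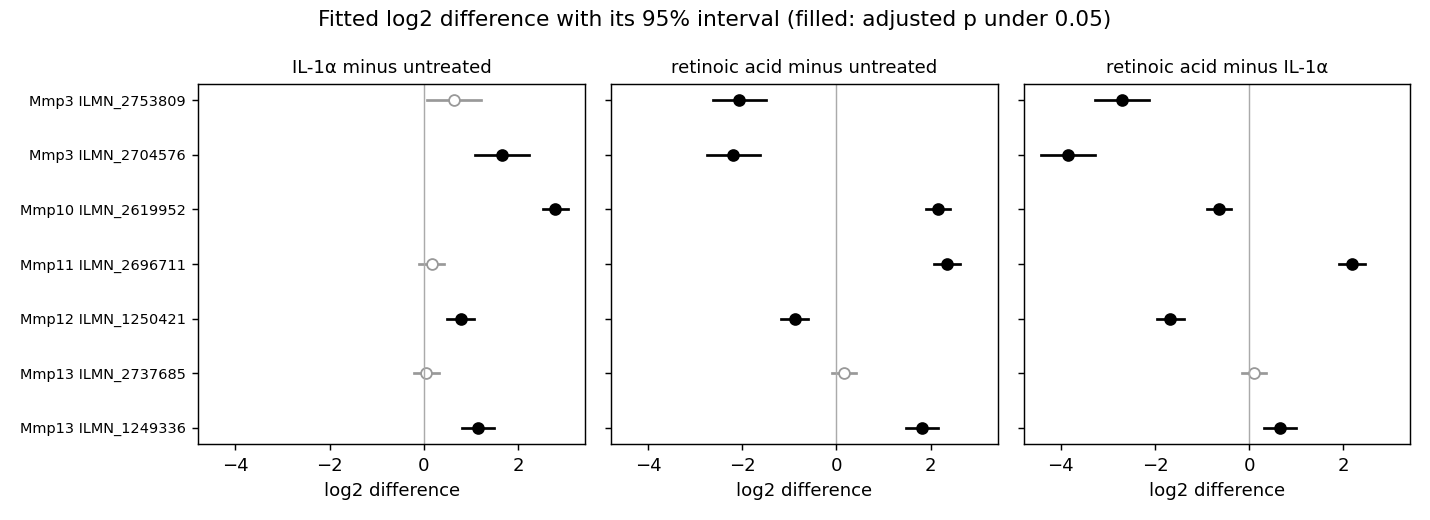
Fitted log2 difference (x axis) with its 95% interval for each of the 7 probes in the 3 comparisons, filled black where the adjusted p was under 0.05. The 2 Mmp13 probes and, for IL-1α, the 2 Mmp3 probes fall on different sides of that threshold.

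Levels of Mmp12 and of the dimmer Mmp13 probe differed more between the batches than between treatments. With treatment in the model, batch 2 exceeded batch 1 by 3.20 for Mmp12 (9.18-fold, SE 0.14, adjusted p = 1.98e-11) and by 3.17 for Mmp13 ILMN_1249336 (8.99-fold, SE 0.12, adjusted p = 4.05e-12), which ranked 96th and 100th of all 18200 probes in that direction. On Mmp13 ILMN_2737685 the batch difference was 0.11 (adjusted p = 0.287), and on Mmp3 ILMN_2704576 -0.0063 (adjusted p = 0.977). Lower in batch 2 were Mmp10 (-0.73, adjusted p = 5.76e-06), Mmp11 (-0.58, adjusted p = 5.24e-05) and Mmp3 ILMN_2753809 (-0.55, adjusted p = 0.0216), but under median scaling these became 0.044, 0.25 and -0.063 and none passed, whereas Mmp3 ILMN_2704576 became 0.56 and did (adjusted p = 0.0415). In all, 5 of the 7 probes were called, 2 higher and 3 lower in batch 2, where 76.3% of all probes were, 33.4% higher and 42.9% lower. Summed macrophage marker intensity in untreated cartilage was 6748 to 6978 in batch 1 and 5952 to 6756 in batch 2, with Itgam undetected on all arrays. With IL-1α it was 8575 to 8662 and 5113 to 5572 in these batches, and with retinoic acid 8301 to 8334 and 7590 to 7687. The markers did not move together. Of 7 detected ones, IL-1α raised 2 and lowered 4 (15.2% and 14.1% of all probes), from 2.73 for Cd14 to -2.11 for Ms4a7. Retinoic acid raised 3 and lowered 1 (18.2% and 17.1%). The part of macrophages in the Mmp12 batch difference was not tested. Summed markers of hypertrophic chondrocytes, in which Mmp13 is known to be made, were 20008 to 21119 in batch 1 and 29241 to 32184 in batch 2, and their part in the Mmp13 difference was not tested. With treatment that hypertrophic sum was lower, at 8413 to 17266 with IL-1α and 10373 to 15287 with retinoic acid, and its part in the Mmp13 treatment differences was not tested. Summed fibroblast and synovium markers were 6599 to 10866 in untreated, 6251 to 9261 in IL-1α and 1825 to 2875 in retinoic acid cultures, and their part in the Mmp3 fall was not tested.

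Mmp8, the neutrophil collagenase, and Mmp7, which lacks the hemopexin domain and is known from epithelium, stayed at the background. Mmp7 ILMN_2659804 was detected on 0 of 12 arrays, with deposited intensities of 25.5 to 55.5. Mmp8 ILMN_1241378 was detected on 1, untreated replicate 2 of batch 2 (1 minus its detection score was 0.0443 there), with intensities of 22.9 to 51.7. Neither was tested, and no level or order among the treatments follows for either gene. Neutrophil markers other than Mmp8 were present, 11 of 12 being detected, with summed intensities of 17642 to 26915 in untreated, 33201 to 36346 in IL-1α and 13656 to 18420 in retinoic acid cultures and only Chi3l3 undetected on all arrays. In the fit 1 of the 11 rose with IL-1α, Lcn2 (1.04, adjusted p = 0.0217), where 15.2% of all probes did. Lcn2 had a mean level of 12.93 untreated and 13.97 with IL-1α, and so made up a large part of the summed intensity. With retinoic acid 6 of the 11 fell, where 17.1% of all probes did, and 3 fell under median scaling. The largest fall was that of Mpo, myeloperoxidase (-2.10, adjusted p = 0.00339 in limma).

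Across the 12 arrays, with the mean of each batch and replicate block removed, Mmp12 followed the 2 Mmp3 probes at Pearson r of 0.93 and 0.97, and Mmp11 ran against them at -0.93 and -0.85. These points share 3 treatment means and 4 blocks and describe the arrays. Of genes outside the 7, those most like Mmp10 were Cebpb, a transcription factor of inflammatory responses (r = 0.996), Pitpnm1 (0.995) and Sphk1, which makes sphingosine 1-phosphate (0.993). Most like Mmp11 were Igfbp4, Cyp26a1, which degrades retinoic acid, and Gdpd5, at r of 0.997, 0.996 and 0.996. Most like Mmp3 were Cmtm8, Tlcd1 and Cyb5 for ILMN_2753809 (0.993 to 0.987) and Slc25a38, Aig1 and Slpi for ILMN_2704576 (0.993 to 0.990), where Slpi, a secreted inhibitor of serine proteases, had differences of 2.54 with IL-1α and -2.41 with retinoic acid. Slc29a1, A130019A16Rik and Dolpp1 were most like Mmp12 (0.984 to 0.981).

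Other matrix metalloproteinases were given by 16 symbols, of which 7 had a detected probe and 6 were undetected on every array. Retinoic acid raised 3 of the 7 and lowered 1 against untreated (18.2% and 17.1% of all probes), and IL-1α raised 1 and lowered 3 (15.2% and 14.1%). Between the treatments 6 of 7 were higher with retinoic acid and 0 lower (15.2% and 15.8% of all probes). The medians were 0.18, -0.0053 and 0.58. Under median scaling IL-1α lowered 1. Mmp14, the membrane-bound enzyme that activates Mmp2 and Mmp13 proenzymes, had the largest rise with retinoic acid (2.07, SE 0.17, adjusted p = 8.41e-07). Mmp9, gelatinase B, was the 1 raised by IL-1α (0.61, SE 0.14, adjusted p = 0.00603). Mmp16 fell with IL-1α (-0.99, adjusted p = 7.45e-05) and with retinoic acid (-0.41, adjusted p = 0.0194), the latter not under median scaling (adjusted p = 0.209) or normalization within batches (adjusted p = 0.064).

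Metalloproteinase inhibitors had 5 detected genes, of which 3 fell and none rose with retinoic acid (17.1% and 18.2% of all probes). With IL-1α 2 fell and 1 rose (14.1% and 15.2%), and the medians were -0.46 with retinoic acid and -0.11 with IL-1α. The inhibitor counts were the same in limma at an unadjusted p under 0.05. Timp3, the inhibitor that stays bound to the matrix, fell with retinoic acid (-1.43, SE 0.11, adjusted p = 3.71e-07). Reck, a membrane-anchored inhibitor, fell with IL-1α (-0.63, adjusted p = 0.00512), and Timp1 rose (0.63, SE 0.15, adjusted p = 0.00694). Under median scaling the falls numbered 2 with retinoic acid and 1 with IL-1α.

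Among 13 detected genes of proenzyme activation and the plasminogen system, retinoic acid raised 6 and lowered 1 (18.2% and 17.1% of all probes). IL-1α raised 4 of them and lowered 2 (15.2% and 14.1%), and the medians were 0.096 with retinoic acid and 0.047 with IL-1α. Htra1, a secreted serine protease, had the largest rise with retinoic acid (2.74, SE 0.11, adjusted p = 1.67e-09), and Pcsk6, a proprotein convertase, was the 1 that fell (-0.81, adjusted p = 0.000186). Serpinb2, an inhibitor of plasminogen activators, had the largest rise with IL-1α (3.15, SE 0.19, adjusted p = 1.67e-07), and Plat, tissue plasminogen activator, the largest fall (-0.85, adjusted p = 0.00342).

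Of 18 detected transcription factors known to act at metalloproteinase promoters, IL-1α raised 10 and lowered none (15.2% and 14.1% of all probes). Retinoic acid raised 7 of them and lowered 2 (18.2% and 17.1%), and the medians were 0.49 with IL-1α and 0.18 with retinoic acid. At an unadjusted p under 0.05 the IL-1α counts in limma were 12 higher and 0 lower. Relb, of the NF-κB family, had the largest rise with IL-1α (1.45, SE 0.11, adjusted p = 1.19e-06). Rarb, a retinoic acid receptor, had the largest with retinoic acid (2.92, SE 0.39, adjusted p = 7.60e-05). Its probe was detected on 5 of 12 arrays, with an untreated mean of 4.74, at the background. The Rarb difference was 2.25 without background correction and 2.02 with a larger offset. Rxra had the largest called fall with retinoic acid (-0.57, adjusted p = 0.0372), which did not pass under median scaling (adjusted p = 0.319) or a larger offset (adjusted p = 0.0564). Between the treatments 5 were higher and 8 lower with retinoic acid (15.2% and 15.8% of all probes), and under median scaling 4 and 5.

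Of 19 detected genes for cartilage substrates of these enzymes, 13 were lower with IL-1α and none higher (14.1% and 15.2% of all probes). With retinoic acid 13 were lower and 1 higher (17.1% and 18.2%), and the medians were -0.99 with IL-1α and -1.69 with retinoic acid. At an unadjusted p under 0.05 the IL-1α counts in limma were 14 lower and 0 higher. Matn1, a cartilage matrix adaptor protein, had the largest fall with retinoic acid (-5.00, SE 0.14, adjusted p = 1.18e-10), and Igfbp5 with IL-1α (-2.29, SE 0.20, adjusted p = 3.15e-06). Igfbp3 was the 1 raised by retinoic acid (1.22, SE 0.22, adjusted p = 0.000716). Of the treatment checks, 4 of 7 detected genes rose and 2 fell with retinoic acid (18.2% and 17.1% of all probes). With IL-1α 3 rose and none fell (15.2% and 14.1%), and 0 were lower in limma at an unadjusted p under 0.05 too. Cyp26a1 led the rises with retinoic acid (4.78) and Nos2, the inducible nitric oxide synthase, those with IL-1α (4.07). Each was detected on 4 of 12 arrays, with untreated means of 4.61 and 4.86, so these sizes rest on values at the background. They were 3.96 and 3.23 without background correction. Saa3, an acute-phase protein, had the largest fall with retinoic acid (-2.62, adjusted p = 0.00532).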

How the data were processed

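Biotin-labelled cRNA from 12 cultures was hybridised to Illumina mouse bead arrays. The authors deposited linear probe intensities that were not normalized, and, per the file headers, a detection value for each probe and array. The deposited detection score is named a p-value in the header but is 1 at the brightest probes, so the detection p was taken as 1 minus that score. Scanning software and annotation build are not given in the sources used here, and 0 value columns lacked a sample. Intensities were background-corrected with detection p-values, quantile-normalized and log2-transformed with an offset of 16 (neqc in limma 3.58.1, R 4.3.3). The filter kept 18200 probes, those whose detection p was below 0.05 on 4 arrays or more. The model held treatment and the 4 blocks of batch and replicate, the study's own design, and p-values were adjusted by Benjamini-Hochberg over all 18200 probes. Batch differences of an effect came from the means of treatment and batch, and probe pairs were tested by two-sided exact permutation. Folds are ratios of normalized intensities. "At least" folds replace an undetected value by the weakest signal still detected on that array, unless the value itself was higher.

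Genes and lists were chosen with earlier results of these data known. All probes of the 7 genes were reported, and for lists the counts and the called genes of largest rise and fall, by the detected probe of highest mean. Likeness took the 3 genes of highest r. The alternatives were other background, scaling, offset and filter settings, models without block or batch, each batch alone, the 8 arrays compared, mean probes and each array left out. The model was run on simulated data, with known changes added to independent normal noise around each probe's mean. Those data lacked the arrays' batch differences, intensity ceiling and undetected values, so they do not test the model under these. The labels give serum-containing medium and triplicate treatments, whereas the study's methods describe serum-free culture and 3 unpooled mice a treatment, and the number of arrays limits the precision. Motifs were searched.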

Additional observations from a re-analysis of the deposited data

Results flagged for a closer look

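The response of Mmp3 to treatment differed between batches 1 and 2 in 5 of the tests of that difference. For retinoic acid against untreated the difference of batch 2 from batch 1 was -1.49 on ILMN_2753809 and -1.69 on ILMN_2704576, and both remained past the threshold in all 12 fits that left out an array and with the replicate block in the model (adjusted p from limma of 0.00166 and 0.00135). For retinoic acid against IL-1α the differences were -1.49 and -0.88, and for IL-1α against untreated -0.81 on ILMN_2704576. The last 3 values rest on IL-1α arrays whose Mmp3 signal was among the highest of the array. Batch and mouse line cannot be told apart here.

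The untreated Mmp7 value of batch 1, replicate 2, 4.88, stood apart from the other 3 untreated arrays. The probe was not detected on any array. Of 30 groups of 4 arrays examined it was the 1 such case, and chance alone flags about 1 in 20 groups.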

How the results depend on the processing

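Over 750 recomputed single values, 697 kept their direction and side of the threshold, 36 lost a call, 6 gained one and 11 changed sign. The sign changes were Mmp10 and Mmp11 between batches under median scaling (0.044 and 0.25), Mmp3 ILMN_2704576 between batches when an array was left out (-0.16 to 0.12, never called), Mmp13 ILMN_2737685 in batch 1 alone (-0.030 with retinoic acid and -0.033 with IL-1α), the same probe with IL-1α when an array was left out (-0.044 to 0.096, the lowest without untreated replicate 2 of batch 2), and Mmp11 with IL-1α in batch 2 alone (-0.012). Probes called between batches fell from 5 to 3 under median scaling, where Mmp10, Mmp11 and Mmp3 ILMN_2753809 lost the call and Mmp3 ILMN_2704576 gained one (0.56). Probes whose retinoic acid against IL-1α effect differed between batches numbered 1 under median scaling and under normalization within batches, in place of 2, and for IL-1α against untreated 0 with no filter, in place of 1 (limma, where the adjusted p of Mmp3 ILMN_2704576 became 0.0559). By the brightest probe of each gene, IL-1α called 2 of 5 genes, and 4 in batch 1 alone or with the mean of a gene's probes. Requiring detection on all 12 arrays left 1 gene called, since Mmp12, detected on 9, was then not tested. With no replicate block and no batch 2 probes and 1 gene were called for IL-1α, and 3 probes and 2 genes between the treatments.

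Leaving out each array gave 6 probes and 4 genes for both retinoic acid comparisons and 4 to 5 probes and 2 to 3 genes for IL-1α, 4 to 5 probes between batches, and batch-dependent effects on 2 probes for retinoic acid against untreated, 0 to 1 for IL-1α and 1 to 2 between the treatments. Same-numbered arrays of different treatments had deviations correlated at 0.00 to 0.06 in batch 1 and -0.11 to 0.39 in batch 2, so these deviations gave no sign in every pair that a number marks shared material. The block was kept because the study's methods use it. With no replicate block and batch alone in the model the calls were the same in number, 6, 4 and 6 probes. Values of Mmp3 with IL-1α and of Mmp13 ILMN_2737685 lie near the top of the intensity range and those of Mmp12 in batch 1 near the background.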
